A study of Caenorhabditis elegans with 4 samples.

Results

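The genes described here are the 30 copies of the major sperm protein (MSP) family, taken as every row of the deposited table whose gene name begins with *msp-* followed by a number, out of 15408 rows. RNA came from 4 populations of N2, the wild-type strain, grown on OP50 bacteria with all stages present together. In the cisplatin group (n = 2) the animals received 60 µg/ml of the drug, a platinum compound that crosslinks DNA, for 24 h at 20°C, and the control group (n = 2) received none. The libraries of each group are numbered 1 and 2 and are biological replicates of whole populations, so that fewer sperm-forming cells and less MSP transcript per cell cannot be told apart. Values are FPKM, in which the fragments of a gene are scaled to its exon length and to the size of the library.

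MSP is the cytoskeletal protein of nematode sperm, whose filaments move the crawling cell in the place that actin holds in other amoeboid cells. Spermatocytes make it in bulk and pack it into fibrous bodies, and spermatozoa later release it, whereupon it acts as a hormone that triggers oocyte maturation and contraction of the gonadal sheath. Hermaphrodites form sperm in the last larval stage and then switch to oocytes, whereas males go on forming sperm, so transcript of these genes marks animals in those phases.

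The read depth behind each gene is not given in the table, and the widths of the deposited confidence bounds correspond to between 6.60 and 7.08 M fragments per library. Median FPKM was 9.30 and 12.3 in cisplatin libraries 1 and 2 and 6.69 and 12.8 in the controls. Markers of the moulting larva separated the libraries by number rather than by treatment. The summed level of 12 of them was 161 and 475 FPKM with cisplatin against 141 and 548 FPKM without it. The summed level of sperm markers other than MSP was 161 and 276 FPKM with cisplatin against 248 and 385 FPKM without it. Most were at low level, with a median between 1.21 and 4.87 FPKM per library, and *spe-27* was at 0 in cisplatin library 1. *ssq-4*, a sperm protein gene and the highest of them, had 52.8 and 80.2 FPKM with cisplatin against 87.8 and 119.6 FPKM without it. It was among the 4 of 15 genes tested with both cisplatin libraries below both controls, against 4.21% of all genes. A list of 10 male markers gave 3 rows, and their summed level was between 1.00 and 5.58 FPKM per library.

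The 30 copies lie in 4 clusters, a cluster being a run of copies with gaps of less than 500 kb along a chromosome. Coordinates are those of the deposited table, on WBcel235. The first cluster of chromosome II holds 10 copies in 414 kb (4785861 to 5200222) and the second holds 3 in 13.3 kb (5797065 to 5810342). The first cluster of chromosome IV holds 8 in 261 kb (5055593 to 5316944) and the second 9 in 455 kb (9688982 to 10143775). They are called II left, II right, IV left and IV right below. Both strands were used in every cluster, with 16 copies on the plus and 14 on the minus strand.

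All 30 copies have a single exon in the annotation. In 28 of them it encodes a protein of 127 residues, while *msp-42* and *msp-71* are annotated as pseudogenes. The row of the table was longer than the annotated gene in 26 copies and equal to it in 4, and its length ranged from 362 to 513 bases. The annotation of RefSeq holds 5 further *msp* genes (*msp-32*, *msp-37*, *msp-52*, *msp-58* and *msp-74*), which were not analysed here. Of the 30 copies, *msp-31* and *msp-45* lie inside the introns of *aagr-2* and *srb-13* on the same strand, and *msp-33* and *msp-38* inside those of *gst-9* and *dhs-12* on the opposite strand. No copy shares exonic bases with such a host. *srb-13* was not analysed here, and in none of the other 3 hosts was either cisplatin library below both controls. The host with the same strand as its copy, *aagr-2*, a glucosidase gene, had 66.1 and 62.8 FPKM with cisplatin against 52.6 and 63.5 FPKM without it.

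MSP transcript was less abundant after cisplatin than without it in every copy, and the groups did not overlap. Summed over the 30 copies, the level reached 2737 and 3177 FPKM with cisplatin against 6855 and 5500 FPKM without it. As a share of all FPKM in the library this was 0.259% and 0.323% with cisplatin and 0.611% and 0.561% without. The sum was 2.50 times lower with cisplatin between the libraries numbered 1 and 1.73 times lower between those numbered 2.

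Both cisplatin libraries were below both controls in 30 of 30 copies, against 4.21% of the 15065 genes tested. The gap between the groups, as the lowest control over the highest cisplatin library, was narrowest in *msp-71* (1.11) and widest in *msp-63* (2.20). The authors' confidence bounds, which cover counting error within a library, were separated in the same way (both cisplatin upper bounds below both control lower bounds) in 26 copies, against 0.531% of all genes tested. The exceptions were *msp-42*, *msp-71* and *msp-63*, the 3 copies of low level, and *msp-38*. The plot of levels by copy shows this order of the libraries copy by copy.

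**Figure D1:**
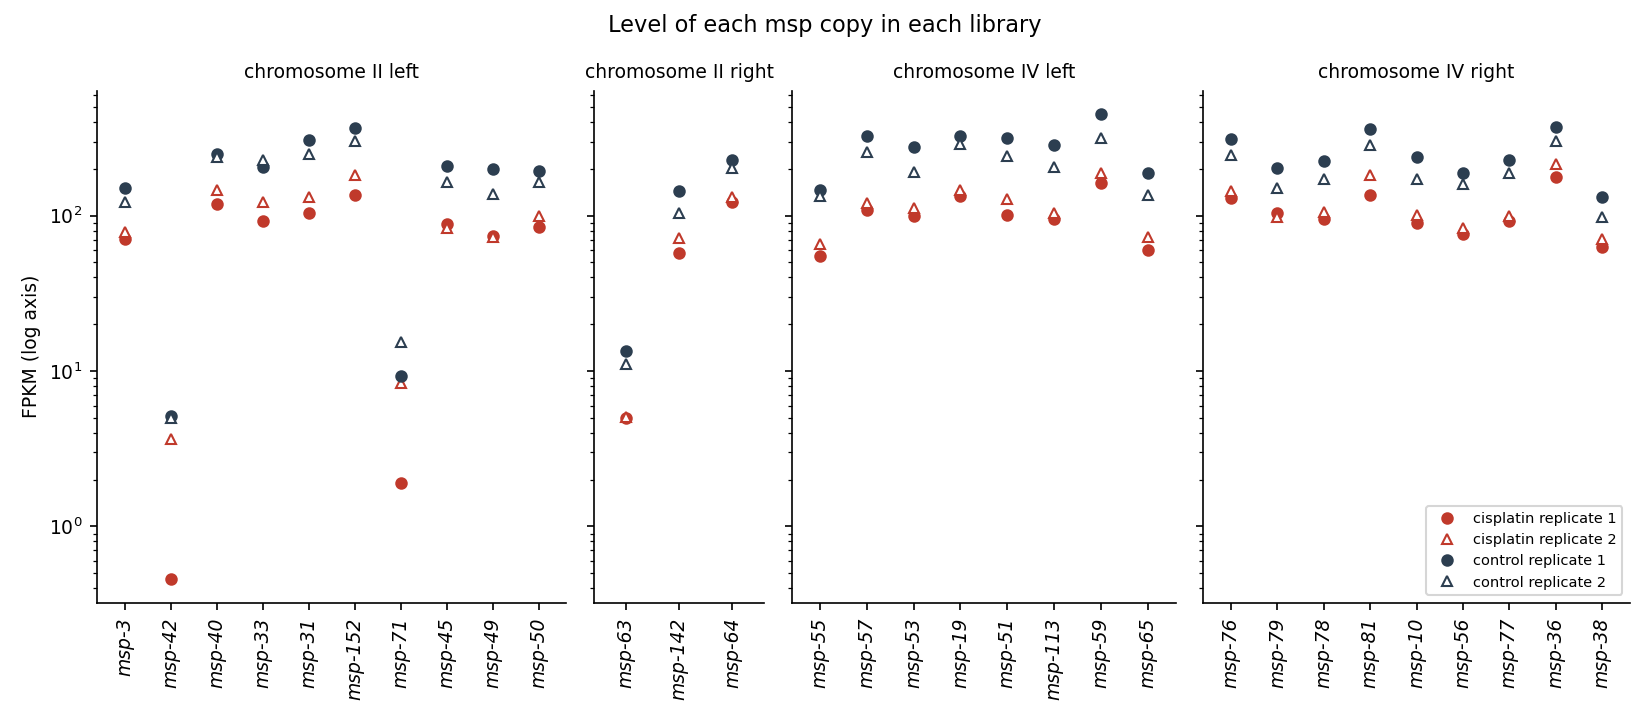
Level of each of the 30 *msp* copies in FPKM (log axis) in the 2 cisplatin and 2 control libraries (each point is a library), ordered by position within the 4 clusters. In every copy both red cisplatin points lie below both dark control points, and *msp-42*, *msp-71* and *msp-63* lie far below the rest.

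In II left, 8 copies with a full reading frame had levels of the same order and the 2 pseudogenes had far less transcript. *msp-3* (F26G1.7, 4785861 to 4786315) had 70.4 and 78.8 FPKM with cisplatin against 152 and 123 FPKM without it. *msp-40* (C33F10.9, 4825380 to 4825845) had 119 and 147 against 248 and 238 FPKM, and *msp-33* (R05F9.8, 4892269 to 4892728) had 91.9 and 122 against 206.6 and 229.7 FPKM. In the latter the second control was the higher one, as in none of the other coding copies. *msp-31* (R05F9.13, 4916179 to 4916562) had 105 and 131 against 308 and 248 FPKM. *msp-152* (ZK546.6, 4932993 to 4933449), at 135 and 184 against 367 and 304 FPKM, had the highest mean level of the chromosome. On the far side of *msp-71* lie *msp-45*, *msp-49* and *msp-50*, which were lower than *msp-152* in every library. *msp-45* (F58A6.8, 5156700 to 5157083) had 87.9 and 82.7 against 207.3 and 165 FPKM. *msp-49* (C34F11.6, 5194332 to 5194792) had 74.1 and 72.7 against 199 and 137 FPKM and *msp-50* (C34F11.4, 5199763 to 5200222) had 84.6 and 99.7 against 193 and 164 FPKM.

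The pseudogenes of II left gave signal of their own at low level. *msp-42* (F26G1.8, 4787159 to 4787520) had 0.456 and 3.65 FPKM with cisplatin against 5.13 and 4.97 FPKM without it, and *msp-71* (F59A6.8, 5012874 to 5013275) had 1.89 and 8.34 against 9.23 and 15.4 FPKM. In both, the ratio between the cisplatin libraries was larger than the ratio between the groups in the libraries numbered 2. The half-width of the deposited bounds was between 36.7% and 100.0% of the midpoint in these rows. Whether fragments of coding copies were assigned to them was not tested.

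II right holds a pair of copies that face away from each other with 413 bases between the rows, and their levels differed more than those of any other adjacent pair of coding copies. *msp-63* (K05F1.7, 5797065 to 5797479), which carries a full reading frame of 127 residues, had 5.02 and 5.03 FPKM with cisplatin against 13.5 and 11.0 FPKM without it. *msp-142* (K05F1.2, 5797893 to 5798339) had 57.8 and 71.9 against 144 and 105 FPKM. The ratio of the pair lay between 9.46 and 14.3 in the 4 libraries, so it was wider than the spread between them. *msp-64* (ZK1248.6, 5809924 to 5810342) had 123 and 131 against 229 and 204 FPKM.

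All 8 copies of IV left are coding, and the cluster holds the copy with the highest mean level, *msp-59* (ZK354.11, 5312690 to 5313146), at 161 and 188 FPKM with cisplatin against 452 and 318 FPKM without it. *msp-55* (C09B9.6, 5055593 to 5056049) had 54.9 and 65.4 against 146 and 134 FPKM and was the lowest of the cluster on average. Its neighbour *msp-57* (R13H9.2, 5062543 to 5062997) had 109 and 121 against 325 and 255 FPKM. These adjacent copies differed by between 1.84 and 2.23 times within a library. *msp-53* (R13H9.4, 5064641 to 5065153) had 99.97 and 112.7 against 275 and 192 FPKM, *msp-19* (F36H12.7, 5260554 to 5261010) had 134 and 147 against 327 and 288 FPKM and *msp-51* (ZK354.5, 5294922 to 5295375) had 101 and 129 against 318 and 243 FPKM. *msp-113* (ZK354.4, 5297927 to 5298383) had 95.2 and 105 against 286 and 206.6 FPKM, and *msp-65* (ZK354.1, 5316488 to 5316944) had 60.2 and 72.5 against 187 and 136 FPKM. In all 8 copies the first control was the highest library and the first cisplatin library the lowest.

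IV right, with 9 coding copies, spanned a similar range. *msp-36* (C04G2.4, 10095400 to 10095851), the copy second in mean level, had 178 and 214 FPKM with cisplatin against 369.9 and 304 FPKM without it. Its neighbour *msp-38* (K08F4.8, 10143312 to 10143775) had 63.3 and 70.7 against 133 and 98.6 FPKM, the lowest mean of the chromosome. *msp-81* (K07F5.1, 9835997 to 9836451) had 136 and 183 against 364 and 286 FPKM and *msp-76* (ZK1251.6, 9688982 to 9689436) had 131 and 143 against 313 and 245 FPKM. The remaining 5 copies lay close together. *msp-79* (T13F2.10, 9766745 to 9767187) had 103 and 98.6 against 202 and 150.1 FPKM, *msp-78* (T13F2.11, 9770030 to 9770456) had 95.6 and 106 against 223 and 173 FPKM and *msp-10* (K07F5.2, 9837632 to 9838065) had 89.7 and 101 against 238 and 172 FPKM. *msp-56* (K07F5.3, 9841443 to 9841951) had 76.1 and 83.3 against 188 and 159 FPKM, and *msp-77* (F32B6.6, 9894596 to 9895033) had 92.8 and 99.7 against 229 and 189 FPKM.

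Copies that lie next to each other often stand on opposite strands. Of 9 adjacent pairs with under 5 kb between their rows, 6 were divergent, 1 was convergent and 2 were on the same strand. Besides *msp-63* and *msp-142* and the pseudogene pair of *msp-3* and *msp-42*, the divergent pairs were *msp-51* with *msp-113*, *msp-59* with *msp-65*, *msp-79* with *msp-78* and *msp-81* with *msp-10*. Levels within these 4 pairs differed by 1.14, 2.46, 1.08 and 1.61 times on average over the libraries. *msp-79* and *msp-78* were thus close in level, while *msp-59* was above *msp-65* in every library.

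Ordered by mean level, the 27 copies above 20 FPKM ran from 280.0 FPKM in *msp-59* to 91.3 FPKM in *msp-38*, a range of 3.07 times. The 3 low copies followed at 8.72 FPKM (*msp-71*), 8.64 FPKM (*msp-63*) and 3.55 FPKM (*msp-42*). Most neighbours in this order did not differ beyond the spread of the libraries, since only 5 of 29 adjacent positions kept their order in all 4 libraries. The order as a whole was shared, with a rank correlation over the 30 copies between 0.94 and 0.97 for any pair of libraries, which have in common the annotation, the row lengths and the way the authors divided fragments among copies.

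Levels between copies also depend on whether the FPKM or the deposited bounds are taken. The midpoint of the deposited bounds was between 58.5% and 70.6% of the FPKM in the 26 copies other than *msp-113* and the 3 low ones, and was larger in longer rows, as the plot of bounds against length shows. In those 26 copies the FPKM lay above its own upper bound in every library. Among other genes of 384 to 513 exonic bases and over 20 FPKM, between 64.9% and 66.1% lay above their upper bound, against 9.49% to 10.5% of all genes. For *msp-113* the midpoint was 100.0% of the FPKM in all 4 libraries. By FPKM this copy was number 11 in the order of levels and by the midpoint of the bounds number 3, so its level relative to other copies is not settled by these values. Ratios between libraries within a copy are not affected by a factor that is constant for that copy. The reason why FPKM and bounds differ was not tested.

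**Figure D2:**
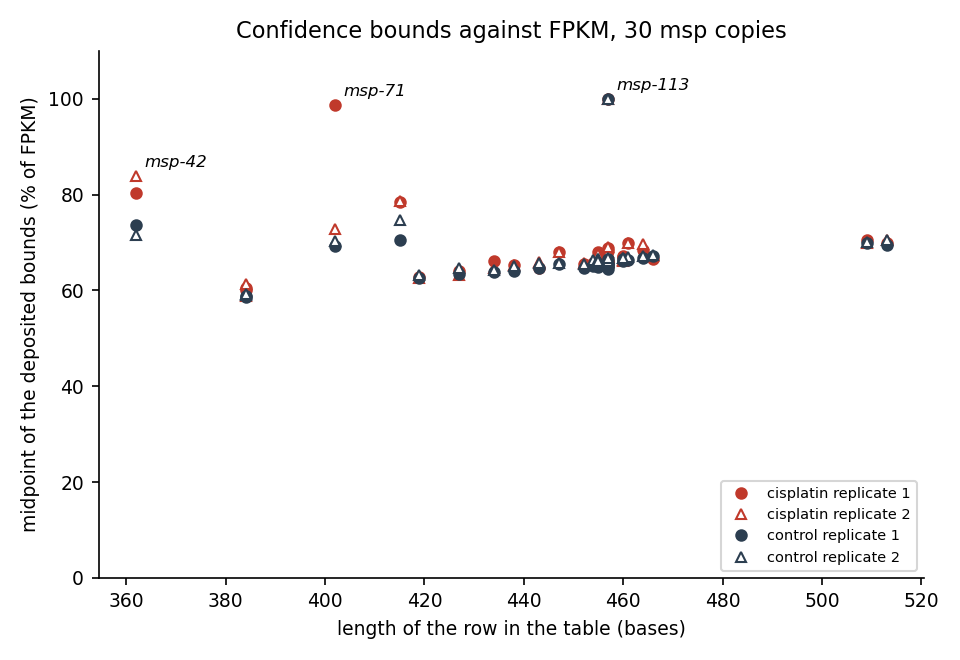
Midpoint of the deposited confidence bounds as a percentage of the FPKM (y axis, from 0) against the length of the table row in bases (x axis) for the 30 copies, a point per library. Copies above 20 FPKM lie between 58.5% and 70.6% except *msp-113*, which is at 100.0% in every library.

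The authors also deposited an FPKM for each condition, and for some copies it stood well below the libraries it was made from. In the control condition this value was under 85% of the mean of both libraries in 12 copies, 11 on chromosome IV and 1 on chromosome II (*msp-31*). It was lowest for *msp-79*, at 26.3 FPKM with cisplatin and 54.2 FPKM without, which is 26.05% and 30.8% of the library means. For the other copies of chromosome II it was between 89.9% and 113.5% of the control mean. In every copy the percentage was 1.13 to 1.33 times higher for control than for cisplatin. The copies are close in sequence and reads with several mapping sites were filtered by the authors, and how fragments were divided among copies was not tested.

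**Figure D3:**
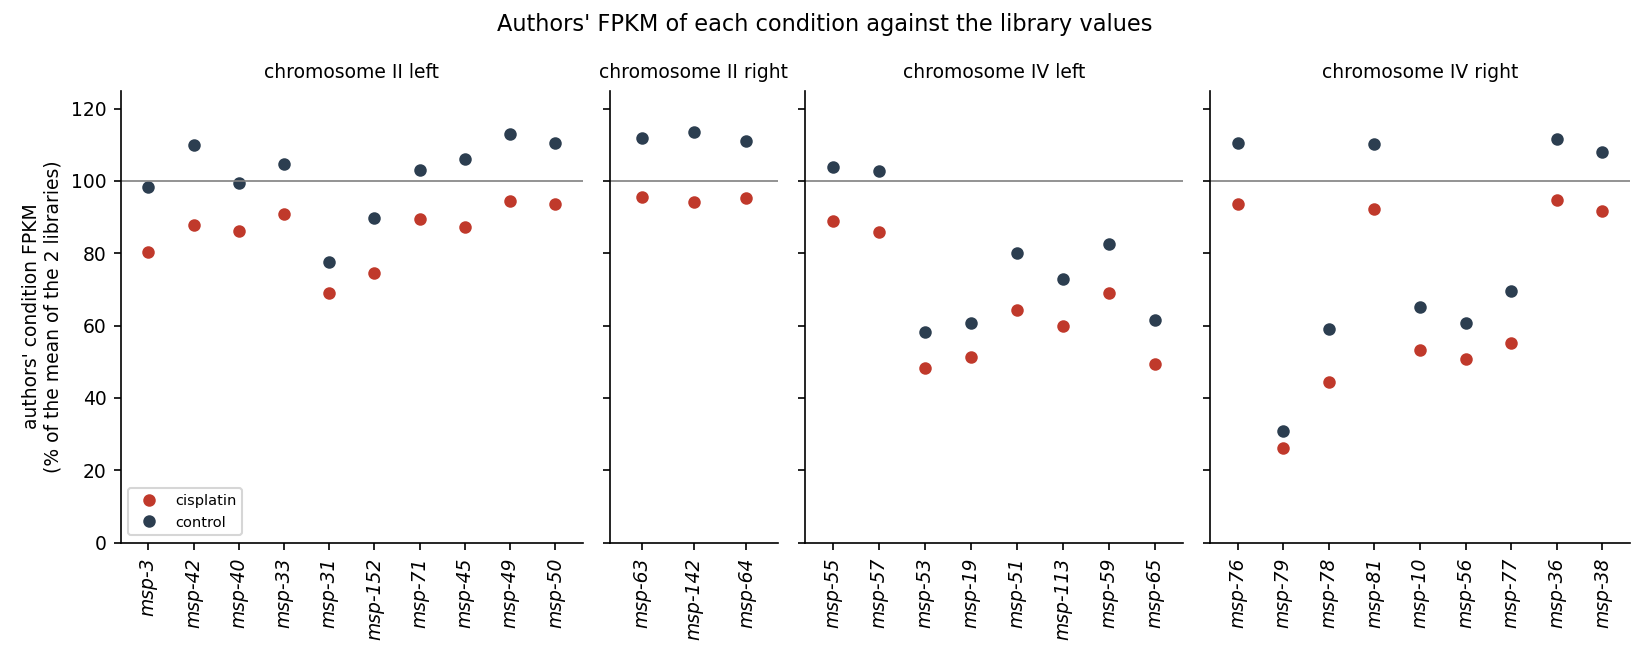
The authors' FPKM of each condition as a percentage of the mean of its 2 libraries (y axis, from 0) for each copy, with cisplatin in red and control in dark. Of the copies under 85% in the control, 11 lie on chromosome IV, with *msp-79* lowest at 30.8%.

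Each copy was then compared between the groups in a limma fit on log2(FPKM + 0.5) over the 15065 genes whose mean reached 0.5 FPKM, a scale that understates the change of low genes. The largest difference of a coding copy was that of *msp-57*, with a log2 fold change of -1.33 (standard error 0.202). *msp-113* and *msp-51* followed at -1.28 each, with standard errors of 0.219 and 0.225. At the other end were *msp-64* at -0.76 (standard error 0.179), *msp-38* at -0.77 (standard error 0.219) and *msp-36* at -0.78 (standard error 0.207). The pseudogenes had larger values with far wider errors, *msp-42* at -1.48 (standard error 0.891) and *msp-71* at -1.44 (standard error 0.755). The median over the 30 copies was -1.11, while that of all genes tested was 0.13, a difference of -1.24.

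No copy passed an adjusted p of 0.05 in limma with Benjamini-Hochberg adjustment over all genes, and 0% of all genes did in either direction. The adjusted p of the copies ran from 0.565 for *msp-57* to 1.00. An unadjusted p of 0.05 or less in limma was given to 28 of 30 copies, all but the pseudogenes and all lower with cisplatin, against 0.445% of all genes tested on the lower side. With every library scaled to the same median FPKM, 9 copies had such a p. On the lower side 169 of the 15065 genes tested then had it, against 67 without scaling. The median of the copies relative to all genes was -1.26 there. Without control replicate 1 the median relative to all genes was -0.77. For 2 libraries against 2, the smallest two-sided p of an exact permutation test is 0.33.

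**Figure D4:**
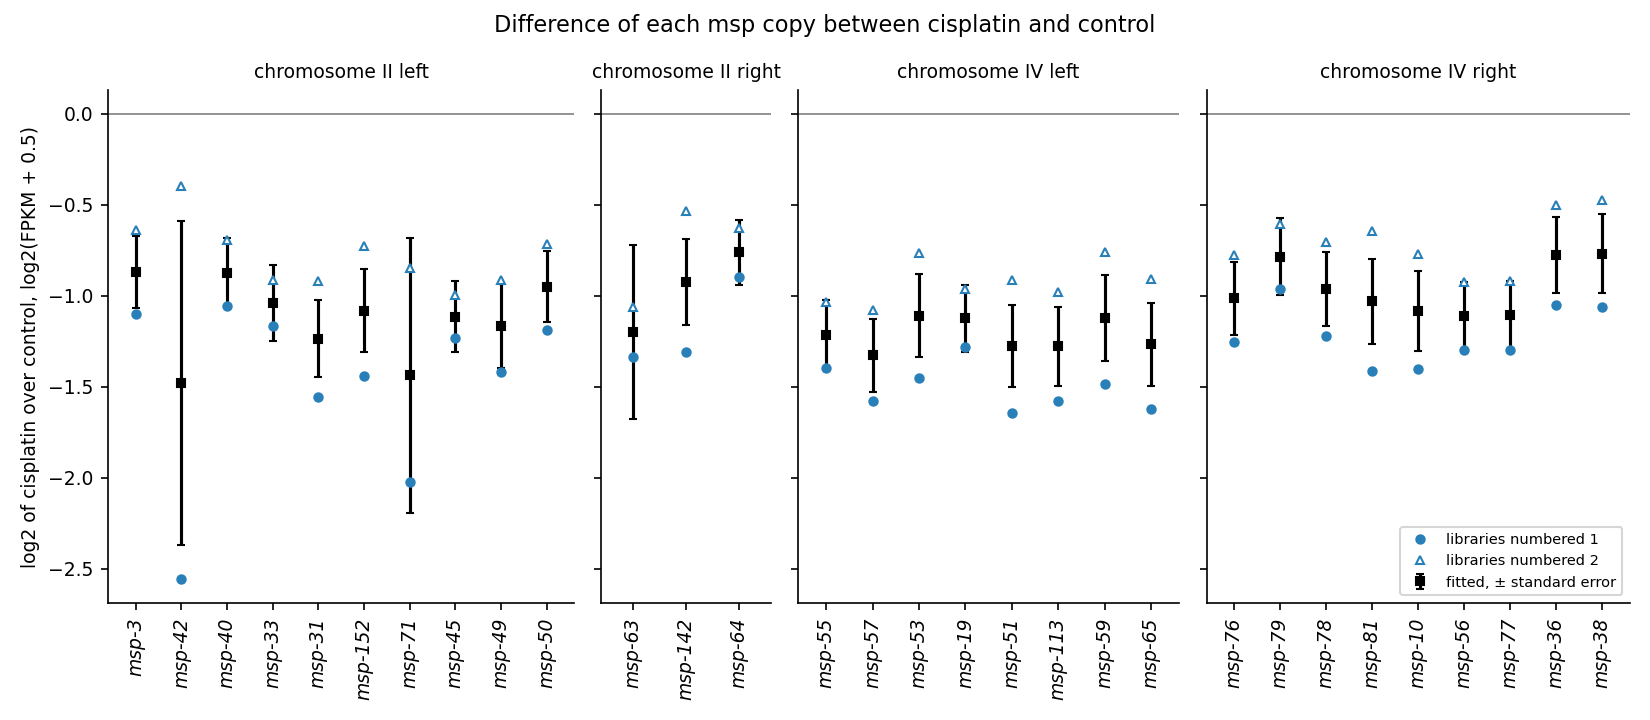
Difference between cisplatin and control on the log2(FPKM + 0.5) scale for each copy, with the fitted value and its standard error (black squares and bars, n = 2 a group) and the difference between the libraries of each number (blue circles for 1, open triangles for 2). All points lie below 0, the fitted values of coding copies lie between -1.33 and -0.76.

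The fitted log2 fold changes of the 28 coding copies had a standard deviation of 0.17. All copies share the same 4 libraries, so the standard error of a copy is not the error of a difference between copies. *msp-57* and *msp-64* had the largest and smallest fitted difference of the coding copies. The log2 differences of *msp-57* were -1.58 between the libraries numbered 1 and -1.08 between those numbered 2. Those of *msp-64* were -0.89 and -0.63. Both copies were picked by these same libraries, so their order in both numbers does not test whether copies differ. The copies of IV left had the largest median, at -1.24 (from -1.33 to -1.11), followed by II left at -1.10, IV right at -1.01 and II right at -0.92. The share of summed MSP FPKM that came from IV left was 29.8% and 29.6% with cisplatin and 33.8% and 32.2% without, and the groups did not overlap. That of IV right was 35.3% and 34.6% against 32.9% and 32.3%, and that of II right was 6.78% and 6.56% against 5.63% and 5.80%, both higher with cisplatin and without overlap. II left took between 27.7% and 29.6% in every library, and there the groups overlapped. The shares of a library add up to 100%, so a lower share of a cluster goes with higher shares elsewhere and these are not separate results. The clusters were not tested against each other, and copies of a cluster are not independent samples.

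The median of the copies differed between replicates with opposite sign in the 2 groups. Library 2 minus library 1, it was 0.17 with cisplatin and -0.32 in the controls as log2 values, while that of all genes was 0.28 and 0.64. The difference between the groups was wider between the libraries numbered 1 than between those numbered 2 in every copy. For *msp-57* the fitted log2 fold change lay between -1.50 and -1.15 when 1 library was left out, and for *msp-64* between -0.85 and -0.68.

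Other genes with an MSP domain or from sperm-specific families were lower in part. These were the *ssp* and *msd* genes, *vpr-1* and the sperm PDZ-domain genes *smz-1* and *smz-2*, of which 19 were tested. Their median log2 fold change was -0.62, or -0.74 relative to all genes, and it depended on single libraries, at -0.33 without cisplatin replicate 1, -0.36 without control replicate 2 and -0.96 without either of the other 2. Without control replicate 1 the *msp* median was -0.92. None passed an adjusted p of 0.05 in limma. With an unadjusted p of 0.05 or less in limma, 4 were lower and 0 higher, against 0.445% and 1.12% of all genes tested. In 10 both cisplatin libraries were below both controls, against 4.21% of all genes tested.

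The 4 lower genes, named here after their values were seen, were *ssp-9*, *ssp-10*, *ssp-11* and *msd-2*. *ssp-10* had 52.9 and 62.2 FPKM with cisplatin against 118 and 117 FPKM without it, a log2 fold change of -1.03 (standard error 0.190). *ssp-11* had 63.5 and 80.8 against 149 and 147 FPKM and *ssp-9* had 69.2 and 94.8 against 151 and 168 FPKM. Like the *msp* copies they showed no overlap, and their size was near the *msp* median. *vpr-1*, which encodes an MSP-domain protein of somatic and germ cells and had the highest level of the list, was at 172 and 145 against 176 and 149 FPKM. The groups overlapped there, with a log2 fold change of -0.04 (standard error 0.196). *ssp-36* had the lowest log2 fold change, -1.09, with 1.76 and 2.86 against 4.75 and 6.11 FPKM, and *ssp-28* the highest, 0.23, with 4.995 and 3.74 against 3.51 and 3.70 FPKM.

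Among genes for the fibrous body and for assembly of the MSP filament, 14 were tested and their median had no stable sign. It was -0.28 with all libraries, 0.01 or 0.11 when cisplatin replicate 1 or control replicate 2 was left out, and -0.84 or -0.99 when this was cisplatin replicate 2 or control replicate 1. In limma 0 had an adjusted p under 0.05, and 1 was lower with an unadjusted p of 0.05 or less, against 0.445% of all genes tested. This was *gsp-4*, a sperm protein phosphatase gene, with 13.8 and 22.9 FPKM with cisplatin against 28.2 and 37.5 FPKM without it. Its close paralog *gsp-3* had 14.3 and 25.2 against 22.05 and 42.7 FPKM, where the groups overlapped. *spe-6*, which encodes a kinase needed for MSP assembly into fibrous bodies, had 6.82 and 8.93 against 5.67 and 10.2 FPKM and overlapped as well. *spe-39*, a vesicle trafficking gene with the highest level of the list, had 42.6 and 36.3 against 47.9 and 36.4 FPKM. *spe-5*, a proton pump subunit gene with the largest value on the higher side, had 13.4 and 11.0 against 9.56 and 10.5 FPKM.

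Regulators of spermatogenesis did not separate the groups in most cases. Over 16 genes the median was -0.04 (from -0.15 to 0.07 with 1 library left out), and 0 had an unadjusted p of at most 0.05 in limma. Cisplatin libraries were both below the controls in 3 and both above them in 1, against 4.21% and 15.1% of all genes tested. *spe-44*, a transcription factor gene whose product activates *msp* and other sperm genes, listed as *gmeb-4*, had 12.03 and 11.4 FPKM with cisplatin against 12.7 and 13.4 FPKM without it, a log2 fold change of -0.15 (standard error 0.374). *elt-1*, encoding a GATA factor that binds *msp* promoters, had 3.98 and 7.68 against 3.87 and 8.25 FPKM. *fog-3*, which commits germ cells to sperm, had 0.436 and 3.94 against 1.74 and 6.99 FPKM, the largest value on the lower side and one in which each group held a low first library. *gld-1*, a translational repressor of the germline with the highest level of the list, had 530 and 435 against 684 and 414 FPKM. *efl-1*, an E2F gene, had the highest log2 fold change of the list at 0.15, with 45.5 and 40.7 against 38.8 and 38.8 FPKM.

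On the receiving side, the median of genes that oocytes and the gonadal sheath use to sense MSP was near that of all genes. Of 24 such genes 0 had an unadjusted p of at most 0.05 or an adjusted p under 0.05, and their median was 0.18, or 0.05 relative to all genes, and from -0.06 to 0.38 with 1 library left out. *vab-1*, the Eph receptor that binds MSP, had 27.8 and 31.3 FPKM with cisplatin against 28.8 and 30.8 FPKM without it, and the groups overlapped. *ran-1*, encoding a small GTPase and highest in level, had 685 and 583 against 709 and 521 FPKM. *oma-1*, an oocyte maturation gene, had 212 and 150.1 against 176 and 128 FPKM. *mpk-1*, the kinase activated in maturing oocytes, had 78.4 and 70.3 against 97.1 and 66.5 FPKM, the lowest log2 fold change of the list at -0.11. *itr-1*, the receptor through which inositol trisphosphate releases calcium in sheath cells, had the highest at 0.55 (standard error 0.731), with 6.64 and 10.7 against 2.81 and 10.7 FPKM.

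Sperm genes outside the MSP family differed between the library numbers as well as between the groups. Of 15 such genes tested, 0 had an unadjusted p of at most 0.05 in limma. In 4 both cisplatin libraries were below both controls, against 4.21% of all genes tested. The median log2 fold change of the 15 genes was -0.43, a difference of -0.56 from the all-gene median. Its sign turned to 0.07 when cisplatin replicate 1 was left out, and it was -0.11, -0.82 or -0.99 when control replicate 2, cisplatin replicate 2 or control replicate 1 was. Leaving out 1 library makes the library numbers unequal between the groups. *spe-11*, a gene for a sperm-supplied embryonic factor, had 3.46 and 16.7 FPKM with cisplatin against 3.56 and 28.8 FPKM without it. The values at either end were those of *spe-27*, a sperm activation gene at -1.07 (listed at 0 in cisplatin library 1, with 2.95 FPKM in the other and 0.92 and 4.87 FPKM in the controls), and of *spe-12*, another such gene, at 0.32. The summed level of the list was 161 and 276 against 248 and 385 FPKM, lower with cisplatin between the libraries of either number. The second control was the highest library for the list, while the first control was the highest for the summed *msp* copies. The ratio of the summed *msp* copies to this sum was 17.1 and 11.5 with cisplatin and 27.6 and 14.3 without, and the groups overlapped.

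Markers of other cells gave the following levels beside the *msp* difference, and their part in it was not tested. Oocyte and eggshell genes had a median log2 fold change of 0.10 over 12 genes, from -0.21 to 0.42 with 1 library left out. Those of the mitotic and meiotic germline had 0.13 over 14, from 0.10 to 0.13. Of the latter 6 had both cisplatin libraries above both controls and 1 had both below, against 15.1% and 4.21% of all genes tested. The 6 vitellogenin genes, which mark the adult intestine, summed to 17217 and 17015 FPKM with cisplatin against 22946 and 20458 FPKM without it, with a median of -0.33, from -0.44 to -0.18 with 1 library left out. In 5 of the 6 both cisplatin libraries were below both controls, against 4.21% of all genes tested. Of these genes 0 had an unadjusted p of at most 0.05 in limma. The moulting list had a median of 0.02 over 12 genes, which was 1.06 without control replicate 2 and -0.95 without control replicate 1. The embryo list had 0.11 over 6, which was 0.68 and -0.40 in the same cases. With 1 control left out, the library numbers were unequal between the groups. Summed levels of both lists differed more between the numbers than between the groups. They were 161 and 475 FPKM with cisplatin against 141 and 548 FPKM without it for moulting. For the embryo list they were 39.9 and 58.2 against 32.5 and 64.0 FPKM. The plot of gene lists sets these side by side.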

How the data were processed

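Poly(A) RNA of 2 cisplatin and 2 control populations had been sequenced as paired ends. The authors aligned reads with TopHat to WBcel235, filtered reads with multiple mapping sites in SeqSolve, and ran Cufflinks and Cuffdiff. The study describes the cultures of a group as independent biological replicates and speaks of both experiments. The sources used here do not say whether a number joins a cisplatin and a control culture. Tool versions are not given in the sources used here. The values are FPKM deposited by the authors per library, with confidence bounds and an OK or FAIL status, and an FPKM per condition, and no counts. Columns of the authors' own comparison (fold changes, p-values and q-values, also for splicing) were not used. A protocol text of the labels gives a dose of 0, and the dose of the treatment label was used.

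Library columns were matched by name. Genes with an estimate marked failed in any library (88, no *msp* copy) were left out, and the 15065 genes whose mean reached 0.5 FPKM were tested on log2(FPKM + 0.5). The test was limma 3.58.1 (R 4.3.3), its prior variance following the mean level, with p-values adjusted by Benjamini-Hochberg. In simulated data with independent noise, the fit returned the size of known changes. The simulation held no difference between library numbers, so it does not cover that feature of these libraries. Depth was read from the bounds as 95% Poisson intervals (1.96 standard deviations) of genes with over 1000 exonic bases and a midpoint over 5 FPKM, and covers counting error only. Strand, exons and biotype came from Ensembl and RefSeq annotation of WBcel235, to which 15201 rows matched.

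All members are named. Lists came from general knowledge of the worm, and of each, genes were named for the highest level or largest change, with others as examples of a role chosen after their values were seen. Members and lists were chosen with earlier results of these data known. Sequences were not used here. Alternatives were the pseudocount, the filter, failed estimates, scaling, the variance trend, a replicate block and each library left out.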

Additional observations from a re-analysis of the deposited data

How the results depend on the processing

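All 30 copies were lower with cisplatin under each of the 13 alternatives run, and the median log2 fold change of -1.11 was -1.32 with libraries scaled to the same median and between -1.22 and -0.92 with 1 library left out. Set against the all-gene median, it lay between -1.65 (without control replicate 2) and -0.77 (without control replicate 1). The 28 copies at an unadjusted p of at most 0.05 became 9 with libraries scaled to the same median, and the same count over all genes, 67, became 169 there and 276 with quantile normalization, and between 52 and 110 with 1 library left out. At an adjusted p under 0.05, where limma gave 0 genes, a pseudocount of 1 FPKM gave 1 gene, and leaving out 1 library gave between 0 and 21 genes, none of them an *msp* copy. A replicate block passed 369 genes, among them 28 of the 30 *msp* copies, and 441 genes were lower at the unadjusted p. This fit has 1 residual degree of freedom per gene. The labels do not say that a number marks a shared culture or day, and with only 2 pairs the pairing was not taken as shown, although differences between libraries 2 and 1 correlated between the groups (r = 0.59 across genes, which are not independent replicates). Scaling to the same median moved the median of all genes from 0.13 to -0.06 and the share of genes with both cisplatin libraries below both controls from 4.21% to 9.24% (12.5% with quantile normalization). It also turned the medians of the MSP sensing (-0.01), oocyte (-0.11), germline (-0.08), moulting (-0.17) and embryo (-0.10) lists to below 0. The cause of these changes was not tested. The planned match of windows to the genome, with its 91 and 50 base alternatives, and the search of proteins and promoters were not run, since no sequence was used here. Bounds as wide as the level itself limit *msp-42* and, less so, *msp-71* and *msp-63*.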
